A study of Mus musculus with 4 samples.

Results

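Glycolysis and hypoxia response genes were followed in growth plate chondrocytes from control mice and from mice without Ift88. The members were the probe sets that the array annotation assigns to 1 of 40 genes: glucose and lactate transporters, the glycolytic enzymes, kinases that set the flux through glycolysis and into the mitochondrion, the hypoxia-inducible factors (HIF) with their regulators, and other genes that low oxygen induces. Of the 40 genes, 36 had at least 1 probe set naming them alone, 84 probe sets in all, among 18193 genes with a value. Eno1 and Gpi1 had no probe set in the annotation used here. The 3 probe sets of Bnip3l also name a pseudogene and were not used, and Gapdh was measured by 3 control probe sets, which were read apart from the tests.

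The proliferative zone of the proximal tibia and distal femur was cut out with a needle at postnatal day 7, and total RNA was amplified in rounds from an oligo-dT primer and read on Affymetrix mouse arrays. The 2 control arrays carry the label wild-type, and the 2 Ift88-deleted arrays come from Col2aCre;Ift88fl/fl mice, in which Cre under a type II collagen promoter removes Ift88 from cartilage cells. Ift88 belongs to the transport complexes by which cells assemble a primary cilium. Both groups were on the C57BL/6 background. The arrays are called biological replicates, but whether a sample pools animals, and their sex and litter, are not given in the sources used here.

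Growth plate cartilage has no blood vessels, and its chondrocytes live at low oxygen and draw much of their ATP from glycolysis. When oxygen is scarce the prolyl hydroxylases Egln1 to Egln3 no longer mark HIF alpha subunits for destruction through Vhl, and HIF, paired with Arnt, switches on glucose transporters, nearly every glycolytic enzyme, and genes such as Bnip3, Vegfa and Adm. HIF1 alpha is known to be needed for chondrocyte survival in the centre of the growth plate.

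Each value is a log2 distance from the probe set's own median over the 4 arrays, and the values carry differences between arrays and no expression level. Because of this step the 2 middle arrays of a probe set lie at equal distances on either side of 0, which is why mirrored values recur below. A difference is the mean of the Ift88-deleted arrays minus the mean of the control arrays. It was tested in limma's moderated two-sided test, with Benjamini-Hochberg adjusted p values over all 18193 genes and a threshold of 0.05. Groups are called apart where both arrays of one group lie above both of the other. With 2 arrays a group, an interval here is that of 1 gene by itself at 95%, with no correction for the number of genes.

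Control 1 stood apart from the other arrays on the first principal component (score -30.8 against 3.4, 8.5 and 19), so results are also given without it. Sex-linked genes divided the arrays as the genotype did: the X-inactivation RNA Xist had a difference of -7.36 and Y-linked Eif2s3y of 3.34, and sex and genotype cannot be told apart for any gene described here. All 8 chondrocyte markers had a probe set in the brightest class (a log2 value of about 8 or more, inferred from number rounding). Of the 8, 6 were above 0 in difference, with a median of 0.07. Col2a1 was at 0.25, Acan at 0.00 and Comp at -0.54 (-0.32 without Ift88-deleted 2). The 6 muscle markers were all below 0 in difference, with array medians of 0.08 and 0.31 in controls and -0.01 and -0.09 in Ift88-deleted samples. The 6 myeloid markers were also all below 0, each with overlapping groups. Osteoclast and myeloid markers stood high in control 2 (medians 1.70 and 0.74). Of the muscle markers Mylpf, a fast myosin light chain, was at 0.77 and 0.38 against -0.38 and -0.56. Its difference of -1.05 (unadjusted p = 0.00101, adjusted p = 0.312 in limma) was larger than that of any member. Aldoa and Bnip3 had the same order of arrays as Mylpf. So did Tpi1, Pgam1, Ldha, Pfkfb3, Ndrg1, Adm, Ddit4, Kdm3a, Higd1a, Stc2 and Mxi1. How many of all genes share that order was not counted. Groups overlapped for 4 of the 6 muscle markers, among them Acta1, Myh8 and Ckm, where control 2 was the highest array. The distance between 3′ and 5′ control probe sets was also below 0 in difference for Actb (-0.15) and 18S RNA (-0.23), with groups apart. For Gapdh (-0.18), the transferrin receptor (-0.06) and pyruvate carboxylase (-0.035) it was below 0 with overlap. The part of muscle RNA or of RNA length in the values below was not tested.

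Most glycolysis and hypoxia genes had lower values in the Ift88-deleted arrays, by small amounts. Of the 36 members 32 had a difference below 0, where 51.8% of all genes did, and the median was -0.32 beside -0.01 over all genes. Both Ift88-deleted arrays lay below both controls for 25 members (69.4%), against 18.6% of all genes, and above them for 1, Arnt, against 14.7%. No member passed the threshold in limma, as for nearly all genes on the array (0.011% passed), and the lowest adjusted p among members was 0.482. At an unadjusted p under 0.05 there were 12 members lower and 0 higher, where 3.68% of all genes were lower and 2.29% higher. The members were chosen with earlier results of these data known, so these counts describe the list and do not test it.

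The shift was not carried equally by all arrays. The member median was 0.22 in control 1 and 0.07 in the other control array, beside -0.10 and -0.14 in Ift88-deleted 1 and 2. Control 1 lay above control 2 for 28 of 36 members (48.4% of all genes). Without control 1 the median difference of the members was -0.19 and 28 lay below 0, and without control 2 it was -0.38 and 33 lay below 0. Without Ift88-deleted 1 or 2 the median was -0.33 or -0.25. The sign of the difference held in each of these 4 fits for 26 members, 25 of them below 0. These are the members with groups apart, whose sign cannot change when 1 array is left out.

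**Figure D1:**
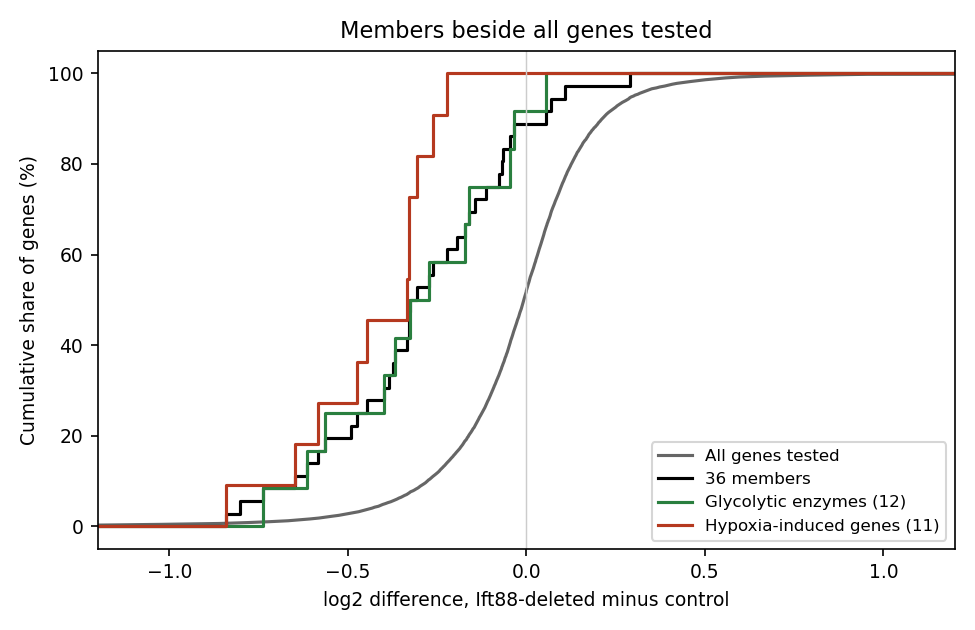
Cumulative share of genes (y axis, percent) by log2 difference, Ift88-deleted minus control (x axis), for all genes tested (grey), the 36 members (black), the 12 glycolytic enzymes (green) and the 11 hypoxia-induced genes (red). The member curves lie to the left of the curve for all genes, with medians of -0.32 against -0.01.

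Glucose enters the cell through Slc2a1 (GLUT1) and Slc2a3 (GLUT3), and neither showed a lower value in both Ift88-deleted arrays. Slc2a1 was at 0.07 and -0.17 in the controls and -0.06 and 0.17 in the Ift88-deleted arrays, with a difference of 0.11 (SE 0.157, interval -0.28 to 0.49). The groups overlapped, and the interval leaves room for a modest change in either direction. Slc2a3 was at 0.50 and -0.07 against -0.02 and 0.07, so that control 1 alone stood high, and its difference of -0.20 (interval -0.71 to 0.32) became 0.09 without control 1. Slc16a3, which exports lactate (MCT4), was at 0.04 and 0.07 against -0.04 and -0.14, with groups apart and a difference of -0.14 (SE 0.125).

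The first steps of glycolysis trap glucose as its phosphate and commit it to the pathway. Hexokinase 1 (Hk1) was at 0.02 and -0.02 in the controls and 0.03 and -0.09 in the Ift88-deleted arrays, a difference of -0.03 (interval -0.35 to 0.28). The hypoxia-inducible hexokinase Hk2 was at 0.30 and 0.04 against -0.27 and -0.04, a difference of -0.33 (SE 0.159), which was -0.20 without control 1. Its groups were apart, but only narrowly.

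Phosphofructokinase, the main control point, is built from a liver (Pfkl), a muscle (Pfkm) and a platelet (Pfkp) form, and groups were apart for Pfkp alone. Pfkl was at -0.09 and 0.01 against 0.04 and -0.20, a difference of -0.04 (interval -0.40 to 0.31). Pfkm was at 0.05 and -0.16 against 0.02 and -0.02, a difference of 0.05 (interval -0.28 to 0.39). Both had overlapping groups. Pfkp was at 0.29 and 0.11 against -0.22 and -0.12, with groups apart and a difference of -0.37 (SE 0.136, unadjusted p = 0.037, adjusted p = 0.820 in limma). That value averages 3 probe sets, of which 1 was at -1.01 and the others at -0.05 and -0.04.

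All 3 kinases that set the flux were below 0 in difference, where 51.8% of all genes were. Groups were apart in 1 of the 3, against 18.6% of all genes. Pfkfb3 makes fructose 2,6-bisphosphate, the strongest activator of phosphofructokinase, and is induced by HIF. It was at 0.14 and 0.07 in the controls and -0.25 and -0.29 in the Ift88-deleted arrays, so the gap between the groups was wider than the spread within either (difference -0.37, SE 0.124, adjusted p = 0.812). Neither of its 2 probe sets shows that gap by itself: one, at -0.51, had groups only just apart and the other, at -0.24, overlapped. Pfkfb4, of the same family, had a difference of -0.07 (interval -0.45 to 0.32) with overlap. Pdk1, which keeps pyruvate out of the mitochondrion, had -0.08 (interval -0.43 to 0.27), and its 4 probe sets ranged from -0.41 to 0.40.

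Aldolase, which splits the 6-carbon sugar, gave the lowest differences of the pathway. Aldoa, the main form outside liver and brain (chromosome 7, 126795234 to 126800994, GRCm38.p6), was at 0.45 and 0.28 in the controls and -0.22 and -0.52 in the Ift88-deleted arrays. The groups were apart, and Aldoa was 1.67-fold lower (log2 difference -0.74, SE 0.159, interval -1.13 to -0.35, adjusted p = 0.483). All 5 of its probe sets were below 0 in difference, 4 of them between -0.78 and -0.89 and 1 at -0.34. Aldoc, the brain form that hypoxia also induces, was at 0.91 and 0.00 against -0.20 and -0.11. Control 1 carried most of that difference of -0.61 (SE 0.294), which was -0.16 without control 1 and -1.07 without control 2.

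Below aldolase, both Ift88-deleted arrays lay under both controls for each measured member but pyruvate kinase. The enolase step has no member in the fit, since Eno1 had no probe set in the annotation used here. Triose phosphate isomerase, Tpi1, was at 0.25 and 0.07 against -0.08 and -0.14, a difference of -0.27 (SE 0.133) with all 3 probe sets below 0. Glyceraldehyde phosphate dehydrogenase, Gapdh, was read by 3 control probe sets whose mean was 0.30 and 0.22 in the controls and -0.18 and -0.42 in the Ift88-deleted arrays. The groups were apart in each of the 3, with differences of -0.75 (3′), -0.57 (5′) and -0.38 (middle). These probe sets serve as controls for RNA length, so Gapdh stood outside the fit. Kept in it, a choice made after seeing the data, it had a difference of -0.57 and an adjusted p of 0.631.

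Phosphoglycerate kinase, Pgk1, makes the first ATP of the pathway and lies on the X chromosome. It was at 0.08 and 0.09 against -0.12 and -0.06, a small difference (-0.17, SE 0.123) but apart in groups, with 3 of 3 probe sets below 0. Pgam1, phosphoglycerate mutase, was at 0.20 and 0.11 against -0.11 and -0.38 (difference -0.40, SE 0.147, unadjusted p = 0.0356, adjusted p = 0.820 in limma), and its difference was -0.27 without Ift88-deleted 2. Pyruvate kinase, Pkm, which yields the last ATP, was at -0.03 and 0.07 against 0.03 and -0.32. Its groups overlapped, the difference of -0.16 (interval -0.56 to 0.23) rested on Ift88-deleted 2, and without that array it was 0.01.

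Lactate dehydrogenase A, Ldha, regenerates the NAD that lets glycolysis run without oxygen and is a classic HIF target (chromosome 7, 46842274 to 46855627). Ldha was at 0.27 and 0.18 in the controls and -0.18 and -0.49 in the Ift88-deleted arrays. It was 1.48-fold lower with groups apart (difference -0.56, SE 0.153, interval -0.94 to -0.19, adjusted p = 0.678), and lay between -0.41 and -0.72 as single arrays were left out.

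As a group, 11 of the 12 enzymes in the fit were below 0 in difference, where 51.8% of all genes were. In 8 the groups were apart in that direction, against 18.6% of all genes. In 4 the gap was wider than the spread within both groups, where 4.81% of all genes were lower with such a gap. The median difference of the enzymes was -0.30, with -0.19 without control 1 and -0.40 without control 2. Of their 26 probe sets 24 were below 0, where 49.5% of all probe sets on the array were, and 22 belonged to the brightest class. In 15 the groups were apart in that direction, against 17.4%. Several read the same gene, as do the 5 of Aldoa and the 3 each of Tpi1 and Pgk1, so they are not independent. No probe set of a member passed in limma over all 45037 probe sets (0.0444% passed), and at an unadjusted p under 0.05 there were 21 of 84 lower and 3 higher (background 3.18% and 3.0%).

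**Figure D2:**
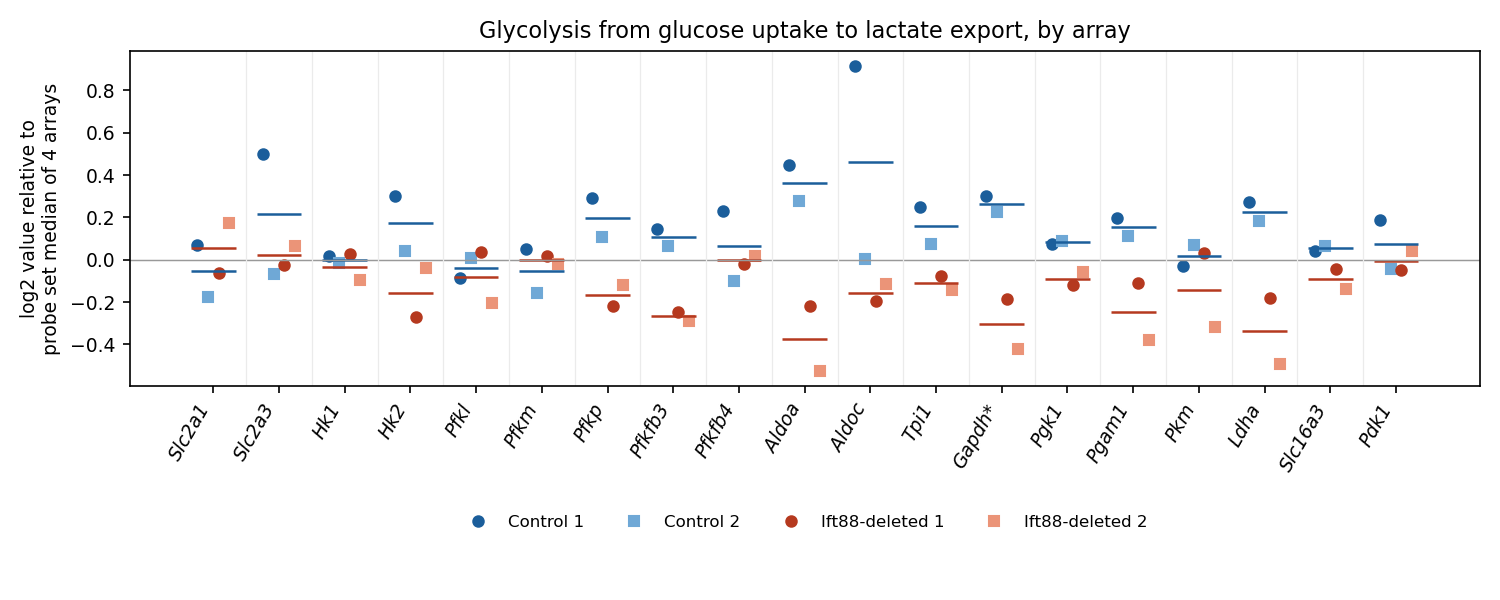
Log2 value relative to the probe set median (y axis) of each gene on the way from glucose uptake to lactate export and the gate to the mitochondrion (x axis) in each array, with lines at the group means of 2 arrays. Gapdh, marked by an asterisk, is the mean of its 3 control probe sets. From Aldoa to Ldha the Ift88-deleted arrays (red) lie below both controls (blue) for every gene but Pkm, while Slc2a1, Hk1, Pfkl and Pfkm overlap.

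The hypoxia-induced members outside glycolysis were lower as genes, though not in every probe set. All 11 measured members had a difference below 0 and groups apart, against 18.6% of all genes. In 15 of their 23 probe sets the groups were apart in that direction, against 17.4% of all probe sets. They were apart the other way in 2, 1 each of Ndrg1 and Stc1, and overlapped in 6. Of the 23, 3 lay above 0 in difference. The gene values had a median difference of -0.33 and ranged from -0.84 to -0.22. With groups apart, leaving out 1 array cannot change the sign of any of the 11. The median then lay between -0.50 and -0.30, at -0.35 without control 1. In 5 of them the gap between groups was wider than the spread within both, where 4.81% of all genes were lower with such a gap.

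Bnip3, a mitochondrial outer membrane protein that marks mitochondria for removal in hypoxia (chromosome 7, 138890836 to 138909506), had the lowest difference of the members. It was at 0.54 and 0.26 in the controls and -0.26 and -0.62 in the Ift88-deleted arrays, 1.79-fold lower (difference -0.84, SE 0.181, interval -1.29 to -0.40, adjusted p = 0.482). Only 0.6% of all genes had a lower difference. It rests on 1 probe set of the brightest class and stayed between -0.66 and -1.02 as single arrays were left out.

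Adm encodes adrenomedullin, a peptide that widens blood vessels. Adm was at 0.40 and 0.16 against -0.16 and -0.58, a difference of -0.65 (SE 0.185, unadjusted p = 0.0134, adjusted p = 0.707 in limma). Its groups were apart in both of its probe sets, at -0.51 and -0.79.

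Ndrg1, a stress-responsive gene widely used as a hypoxia marker (chromosome 15, 66929318 to 66969641), was at 0.45 and 0.25 against -0.19 and -0.28. The difference was -0.58 (SE 0.138, adjusted p = 0.583), a mean over 5 probe sets that did not move alike. The lowest were at -1.34 and -1.28, the next at -0.43, and the others at -0.03 and 0.16. Its gene value thus lies well inside the range of its probe sets.

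Stc2, a secreted glycoprotein that restrains IGF release, was at 0.38 and 0.14 against -0.02 and -0.40, a difference of -0.47 (SE 0.178), and -0.28 without Ift88-deleted 2. Its relative Stc1 averaged -0.26 (-0.17 without control 2) over probe sets at -0.74 and 0.22. Ddit4, an inhibitor of mTORC1, was at 0.43 and 0.13 against -0.13 and -0.19, a difference of -0.44 (SE 0.152), and -0.29 without control 1. Mxi1, which opposes Myc, was at 0.26 and 0.09 against -0.13 and -0.19 (difference -0.33, SE 0.132). Its probe sets were at -0.56, with groups apart, and -0.11, with overlap. By gene value both controls lay above both Ift88-deleted arrays for all of these, and control 1 was the highest array for Stc2, Ddit4 and Mxi1.

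The remaining 4 hypoxia-induced members lay between -0.33 and -0.22. The histone demethylase Kdm3a and the mitochondrial protein Higd1a were both at -0.33, Ankrd37 at -0.31 and the angiogenic factor Vegfa at -0.22 (interval -0.53 to 0.08). Without control 1, Kdm3a was at -0.19 and Higd1a at -0.15. Higd1a averaged probe sets at -0.80, -0.08 and -0.11.

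**Figure D3:**
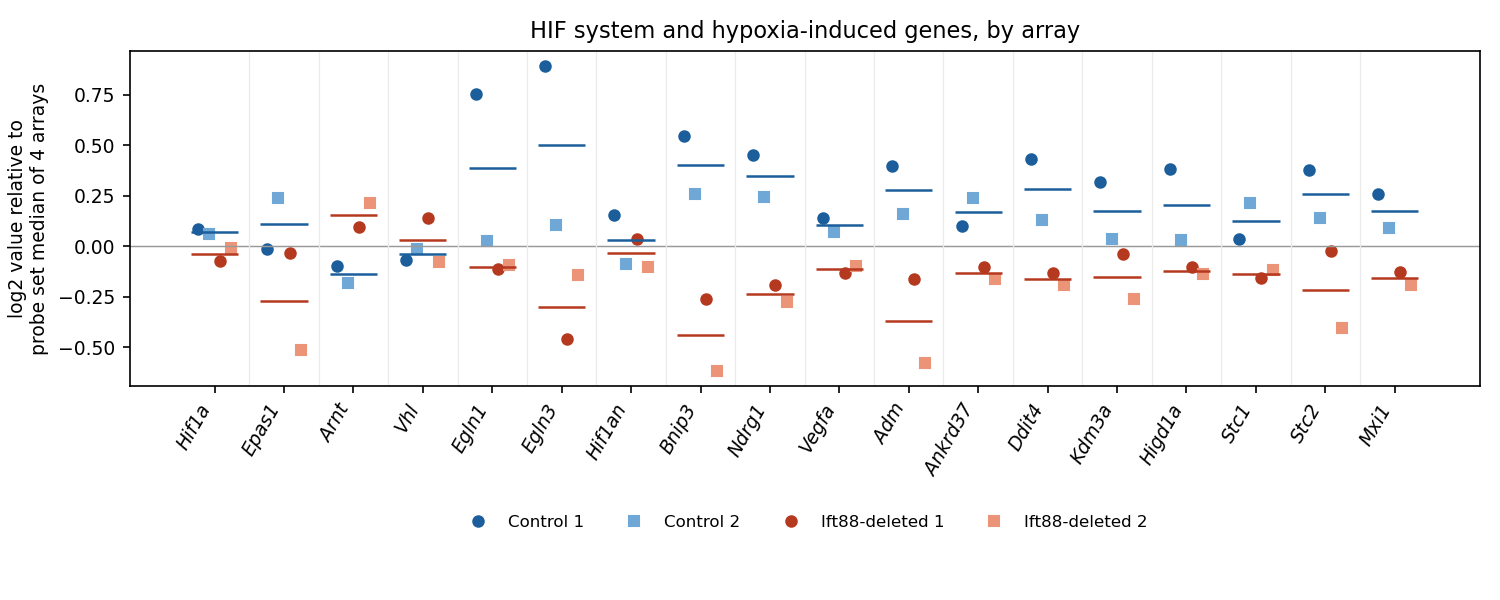
Log2 value relative to the probe set median (y axis) of 7 HIF subunits and regulators and 11 hypoxia-induced genes (x axis) in each array, with lines at the group means of 2 arrays. From Bnip3 to Mxi1 both Ift88-deleted arrays lie below both controls, while Arnt shows the opposite order and Vhl and Hif1an overlap.

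The 4 promoters shown are those of the members with the largest differences among those with an unadjusted p under 0.05, groups apart, an entry in the RefSeq promoter table (GRCm38.p6) and a hypoxia response core. The core searched was ACGTG or GCGTG on either strand, which HIF binds in many of its targets, in the 250 bases before the start site. Capitals mark each match, and CACGTG, an E-box that other factors bind, counts once on each strand. The stretches are chr7:138909507-138909756 (minus strand) for Bnip3, chr12:54203875-54204124 (minus) for Egln3, chr7:126799255-126799504 (minus, 1 of 3 windows listed for Aldoa) and chr7:110627407-110627656 (plus) for Adm, each 5′ to 3′ and ending at the base before the start.
Bnip3: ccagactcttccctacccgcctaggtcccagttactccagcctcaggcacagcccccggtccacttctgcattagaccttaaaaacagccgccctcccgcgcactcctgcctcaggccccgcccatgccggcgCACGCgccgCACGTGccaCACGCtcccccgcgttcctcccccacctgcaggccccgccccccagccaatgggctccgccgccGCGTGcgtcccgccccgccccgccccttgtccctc
Egln3: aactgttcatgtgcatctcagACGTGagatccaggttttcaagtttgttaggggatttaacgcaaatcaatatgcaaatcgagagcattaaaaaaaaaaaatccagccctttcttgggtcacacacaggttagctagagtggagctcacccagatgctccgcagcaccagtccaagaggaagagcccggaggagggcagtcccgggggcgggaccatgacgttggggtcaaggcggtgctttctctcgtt
Aldoa: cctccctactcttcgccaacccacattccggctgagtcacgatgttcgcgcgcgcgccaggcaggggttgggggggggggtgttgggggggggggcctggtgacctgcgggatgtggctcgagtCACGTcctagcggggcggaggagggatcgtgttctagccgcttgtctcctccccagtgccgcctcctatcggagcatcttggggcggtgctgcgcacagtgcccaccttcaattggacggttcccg
Adm: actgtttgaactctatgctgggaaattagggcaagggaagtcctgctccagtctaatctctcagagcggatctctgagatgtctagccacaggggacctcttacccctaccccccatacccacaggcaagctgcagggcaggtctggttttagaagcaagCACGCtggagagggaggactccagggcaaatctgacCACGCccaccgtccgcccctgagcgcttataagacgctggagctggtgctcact
Bnip3 held 5 matches, 2 of them the strands of 1 CACGTG, Adm 2, and Egln3 and Aldoa 1 each. Of the 32 members in the fit with a promoter entry 29 had a core in at least 1 window, against 41.5% of all genes in the table, and by window it was 36 of 48 against 38.6%. Members with little difference held it too, among them Slc2a1, Hk1, Pfkl and Pfkm. All 9 hypoxia-induced members with an entry had a core, and 4 of 6 HIF subunits and regulators did. Many members are known HIF targets, which is why they were listed, so the share describes the list. A match is a string of letters and does not show that HIF binds there.

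HIF itself and its regulators did not all move alike. Groups were apart with lower values in 4 of the 7, against 18.6% of all genes. They were apart with higher values in 1, against 14.7%. Hif1a, the oxygen-regulated subunit, was at 0.09 and 0.06 against -0.07 and -0.01, a small difference (-0.11, SE 0.123, interval -0.42 to 0.19) with groups apart. Epas1 (HIF2 alpha) was at -0.01 and 0.24 against -0.03 and -0.51. Its difference of -0.38 (SE 0.2) was carried by Ift88-deleted 2 and was -0.14 without that array, and its probe sets were at -0.70 and -0.06.

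Arnt, the constant partner of both alpha subunits, was the single member higher in both Ift88-deleted arrays. It was at -0.10 and -0.18 in the controls and 0.09 and 0.21 in the Ift88-deleted arrays, with a gap wider than the spread within both groups (difference 0.29, SE 0.129, interval -0.03 to 0.61, adjusted p = 0.855). Of its 5 probe sets 3 of the brightest class were at 0.74, 0.50 and 0.40, each with groups apart. The others were at -0.14, with groups apart the other way, and at -0.04, with overlap.

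The oxygen-sensing hydroxylases Egln1 (PHD2) and Egln3 (PHD3), themselves HIF targets, had lower values. Egln3 (chromosome 12, 54178981 to 54203874) was at 0.89 and 0.11 in the controls and -0.46 and -0.14 in the Ift88-deleted arrays. Its difference of -0.80 (SE 0.276, interval -1.48 to -0.12, adjusted p = 0.814) was -0.41 without control 1 and -1.19 without control 2. It averaged probe sets at -1.07, with groups apart, and -0.53, with overlap. Egln1 was at 0.75 and 0.03 against -0.11 and -0.09, a difference of -0.49 (SE 0.245) that was -0.13 without control 1 and -0.85 without control 2. In both genes control 1 was the highest array. In Egln1 control 2 lay only just above the Ift88-deleted arrays.

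Vhl, which targets hydroxylated HIF alpha for destruction, had 0.07 (interval -0.27 to 0.41), and Hif1an, the asparaginyl hydroxylase that blocks HIF activity, had -0.07 (interval -0.43 to 0.29). Their groups overlapped. Over the 7 genes 5 were below 0 and the median was -0.11.

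**Figure D4:**
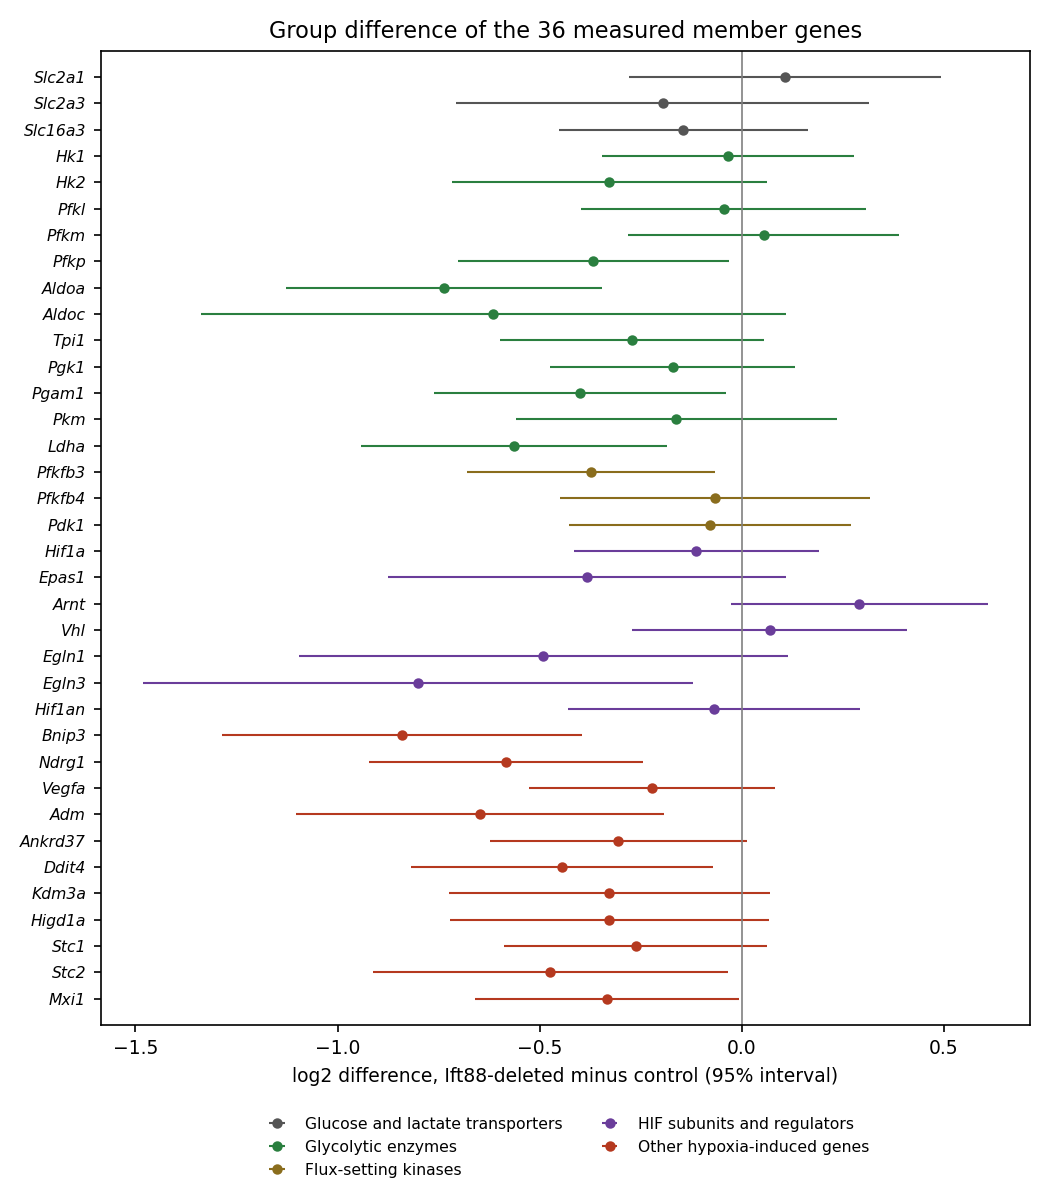
Log2 difference, Ift88-deleted minus control (x axis), of the 36 members (y axis, by role), with bars for the 95% interval of limma's fit on 2 arrays a group. Bnip3, Egln3 and Aldoa are lowest and Arnt is highest at 0.29, and no difference passed the threshold over all genes.

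**Figure D5:**
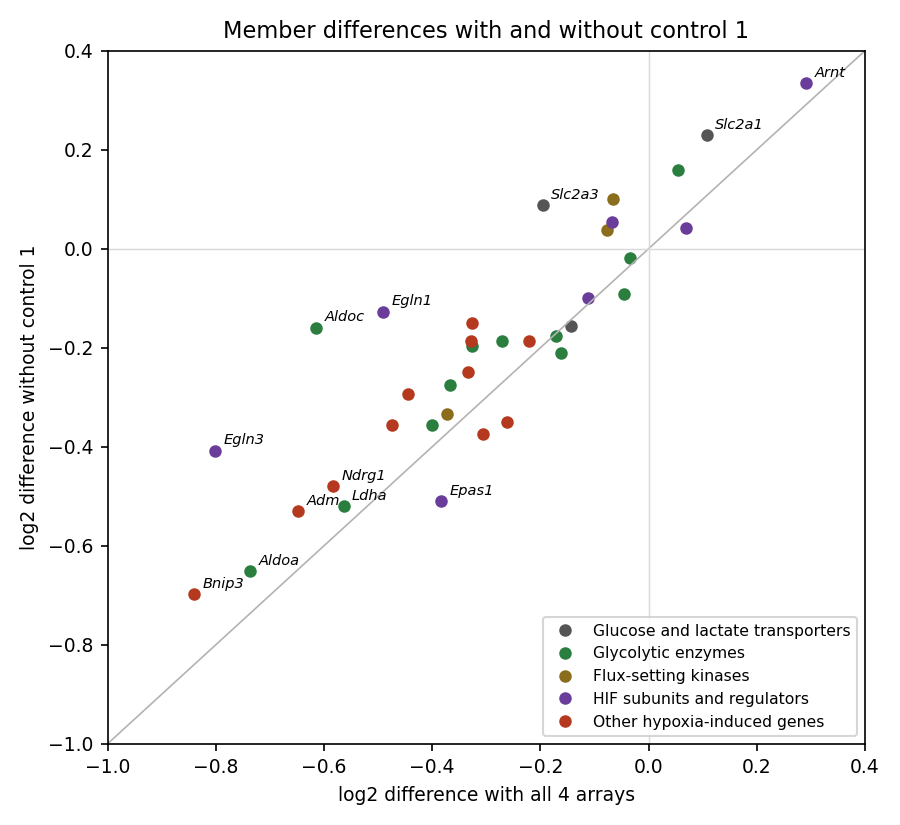
Log2 difference of each member with all 4 arrays (x axis) and without control 1 (y axis), with a line of equal values. Bnip3, Aldoa and Ldha stay near the line at -0.70, -0.65 and -0.52, while Aldoc, Egln1 and Egln3 move to -0.16, -0.13 and -0.41.

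Other genes of the same pathways were counted in the same fit, from lists written down beside the members. Of 46 further hypoxia-induced genes 34 were below 0, where 51.8% of all genes were, with a median of -0.13. In 19 the groups were apart in that direction (41.3%, against 18.6% of all genes). None passed in limma, while 9 were lower and 1 higher at an unadjusted p under 0.05. Of all genes 3.68% were lower and 2.29% higher at that p. The largest of the 9 were Car9 (-0.999, SE 0.372), a carbonic anhydrase that rids the cell of acid, Gbe1 (-0.81), the glycogen branching enzyme, and the metallothionein Mt1 (-0.77). Single arrays carried part of each: Car9 was at -0.49 and Mt1 at -0.42 without Ift88-deleted 1, and Gbe1 at -0.43 without control 1. Cited2, a transcriptional regulator that competes with HIF for its coactivator, was at 0.34. It is named as the only one higher at an unadjusted p under 0.05, while 12 of the 46 were above 0.

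Isozymes and transporters outside the member list had 14 of 23 below 0 (51.8% of all genes) with a median of -0.06 (0.02 without control 2). In 5 the groups were apart in that direction (21.7%, against 18.6% of all genes). Slc2a10 (-1.01, and -0.66 without Ift88-deleted 2), Bpgm (-0.43) and Pgm2 (-0.39) were the 3 lower at an unadjusted p under 0.05. Of all genes 3.68% were lower at that p. Of the other enolases, Eno2, the neuronal form, was at 0.04 and -0.23 against -0.04 and 0.51, a difference of 0.34 with overlap, and Eno3, the muscle form, was at -0.25 with groups apart. Pgam2, the muscle mutase, was at 0.22 with overlap. These 3 were chosen after their values were seen. Of 9 pentose phosphate genes 6 were below 0 (51.8% of all genes), with a median of -0.04, and 0.05 without Ift88-deleted 1. In 3 the groups were apart in that direction (33.3%, against 18.6% of all genes). Transaldolase, Taldo1, was at -1.05 (SE 0.263) and at -0.68 without Ift88-deleted 2. Gluconeogenesis and glycogen genes had 9 of 14 below 0 (51.8% of all genes), with a median of -0.08, and -0.21 without Ift88-deleted 1. In 6 the groups were apart in that direction (42.9%, against 18.6% of all genes). The 3 lower at an unadjusted p under 0.05 (3.68% of all genes) were Gbe1, Pygl and Gys1 (-0.39). Pygl, glycogen phosphorylase, was at -0.73 (-0.44 without control 1). Gbe1, at -0.81, is also counted among the further hypoxia-induced genes.

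Genes that carry pyruvate into and through the citric acid cycle had 26 of 27 below 0 (51.8% of all genes), with a median of -0.20. In 11 the groups were apart in that direction (40.7%, against 18.6% of all genes). Their array medians were 0.20 and 0.01 in the controls and 0.00 and -0.18 in the Ift88-deleted arrays, with control 2 and Ift88-deleted 1 close together. The median difference was -0.09 without control 1 and -0.08 without Ift88-deleted 2. In 1 of the 27 the gap between groups was wider than the spread within both, where 4.81% of all genes were lower with such a gap. The pyruvate dehydrogenase phosphatase Pdp1 (-0.72) and citrate synthase, Cs (-0.43, and -0.28 without Ift88-deleted 2), were lower at an unadjusted p under 0.05, and none passed. Of all genes 3.68% were lower at that p. Other HIF regulators, 21 genes, were balanced, with 11 below 0, a median of 0.00 and none at an unadjusted p under 0.05.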

How the data were processed

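Expression was measured on 4 Affymetrix mouse arrays, 2 per group, from 50 ng of total RNA per sample per the labels. The table the authors deposited is in log2 units. They used RMA, per the submitters' processing notes, with no version given, and in the deposited table each probe set's median over the arrays is 0 (largest departure 5e-07), so levels are lost. The log base was inferred from the values.

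Genes were named from the platform annotation, with symbols updated through the RefSeq table of GRCm38.p6. Each gene took the mean of the probe sets that name it alone (34945 probe sets, 18193 genes), with the 64 control probe sets left out. limma 3.58.1 under R 4.3.3 fitted the group alone (lmFit, eBayes without trend), with 2 residual and 3.83 prior degrees of freedom, and was tested on simulated data. An exact permutation of 2 against 2 cannot pass the threshold. Precision is limited by the number of arrays, and p values measure the spread between these samples.

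Members and lists were chosen with earlier results of these data known. All members are named. Values in every array are given for each glycolytic enzyme and, in the other roles, for up to 6 members with groups apart. From other lists, up to 3 genes are named where groups are apart and the unadjusted p is under 0.05. Alternatives were renewed quantile normalization, median centring, single probe sets, brightness classes, other moderation, a looser threshold, a test against a log2 difference of 0.5, X and Y genes left out, the replicate number as a block and leaving out each array. Keeping the control probe sets was added after seeing the data. No protein sequences were used here.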

Additional observations from a re-analysis of the deposited data

How the results depend on the processing

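No member passed in limma under any setting run, including each probe set by itself and a threshold of 0.1. The lowest adjusted p of a member was 0.482 with all arrays and lay between 0.163 (without Ift88-deleted 1) and 1 (test against a log2 difference of 0.5). With the replicate number as a block 0 members passed (lowest adjusted p 0.463). The labels tie no litter or day to these numbers, and 2 pairs, with a correlation of replicate differences between the groups of 0.139, do not settle whether they pair the samples. The count of all genes called went from 2 to 1 under the block. Over all genes 14 passed after renewed quantile normalization, 6 with the brightest class, 4 without the dimmest class, 56 without Ift88-deleted 1 and 38 without Ift88-deleted 2, and 0 with X and Y genes left out.

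Median differences of the role groups moved by more than the spread between arrays as follows. With the brightest class only, transporters were at 0.11 (Slc2a1 alone), HIF subunits and regulators at -0.29 and hypoxia-induced genes at -0.56. By probe set, transporters were at -0.040. Among fits that left out an array, transporters and glycolytic enzymes moved beyond that spread without control 1. Every role group but transporters did so without control 2. The ranges that follow hold every such fit, moved or not. Leaving out single arrays gave -0.15 to 0.089 for transporters, -0.40 to -0.19 for glycolytic enzymes, -0.23 to 0.039 for flux-setting kinases, -0.19 to -0.099 for HIF subunits and regulators and -0.50 to -0.30 for hypoxia-induced genes.

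The sign of 10 members changed when an array was left out, with ranges of -0.015 to 0.23 (Slc2a1), -0.48 to 0.089 (Slc2a3), -0.095 to 0.027 (Hk1), -0.17 to 0.076 (Pfkl), -0.049 to 0.16 (Pfkm), -0.33 to 0.012 (Pkm), -0.23 to 0.10 (Pfkfb4), -0.19 to 0.039 (Pdk1), -0.040 to 0.18 (Vhl) and -0.19 to 0.054 (Hif1an). Single probe sets had the other sign for Slc2a3 (0.21), Pfkl (0.25), Pdk1 (0.40), Hif1a (0.060), Arnt (-0.14 and -0.037), Vhl (-0.23), Ndrg1 (0.16), Stc1 (0.22) and Stc2 (0.10). The cause was not tested. The classes of brightness are coarse and stand in for a signal over background.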
